A study of Mus musculus with 9 samples.

Results

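The genes described are the core of the pyruvate dehydrogenase complex, the kinases and the phosphatase that act on it, and the carrier that brings it pyruvate. They were taken by symbol from the deposited expression table, and all 10 (Pdk1, Pdk2, Pdk3, Pdk4, Pdp1, Pdha1, Pdhb, Dlat, Mpc1 and Mpc2) were found among its 30128 genes. Their mRNA was followed in left ventricle from 9 mouse samples in 3 groups of 3. Control samples were wild type, and their labels name no virus. The other two groups were db/db mice, which lack a working leptin receptor and grow obese and diabetic, and each had received adeno-associated virus of serotype 9. In the null-virus group (AAV9_null) the virus was labelled null. In the USP28-virus group (AAV9_USP28) it carried USP28, a deubiquitinating enzyme, behind the cTnT promoter of cardiac troponin T, which is active in cardiomyocytes. No db/db sample without virus and no wild-type sample with virus is among the 9, so the db/db genotype and the virus cannot be told apart in the comparison of null virus with control. Age, sex and background strain are not in the labels, and the stated purpose was to see what more USP28 does in diabetic heart failure and remodelling. The labels do not say that samples of a group came from separate animals, so each p-value reflects the spread among the samples as deposited, which may be technical.

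The pyruvate dehydrogenase complex sits in the mitochondrial matrix and turns pyruvate into acetyl-CoA, the step that commits carbohydrate carbon to oxidation. Its E1 enzyme is built from the subunits encoded by Pdha1 and Pdhb, its E2 core from Dlat, its E3 enzyme from Dld, and Pdhx tethers E3 to the core. Pyruvate dehydrogenase kinases phosphorylate the E1 alpha subunit and switch the complex off, and the phosphatases encoded by Pdp1 and Pdp2 remove the phosphate and switch it on. Pyruvate enters the matrix through a carrier made of Mpc1 and Mpc2. Heart muscle expresses several of the kinases, and Pdk4 is known as the kinase gene that answers to fasting, fatty acids and diabetes. The values below are mRNA levels, and neither phosphorylation nor enzyme activity was measured.

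Levels are given as scaled RPKM, reads per kilobase of gene length after a trimmed-mean scaling between libraries. Differences are log2 differences of scaled RPKM + 0.1, tested in limma over the 14104 genes that reached 0.5 RPKM in at least 3 libraries. A gene with a Benjamini-Hochberg adjusted p under 0.05 is said to have passed, and to have risen or fallen. Depth ran from 35970332 to 56497662 reads per library, and mitochondrially encoded genes took 15.7% to 19.9% of them. The reads behind the members ranged from 19 to 56 per library for Pdk3 and from 22441 to 124971 for Pdk4. Null-virus replicate 1 stood apart from the rest: its genes departed from their group mean by 0.33 log2 on average, against 0.15 to 0.21 in the other 8 libraries. With tested genes split by length into 3 equal classes, its shortest class departed by a median of 0.18 and its longest by a median of -0.15. Calls of the 10 genes that change without this library are therefore given with and without it. The marker values below are given only with it. Usp28 itself was 12.6, 13.3 and 13.9 RPKM in the control libraries, 9.93, 7.54 and 7.83 in those with null virus and 9.72, 11.3 and 11.4 in those with USP28 virus. It fell by 0.66 log2 from control to null virus (SE 0.12, limma adjusted p = 0.0078), and the difference between USP28 virus and null virus, 0.36 (95% interval 0.08 to 0.64), did not pass (adjusted p = 0.2). The labels do not give the species of the USP28 carried by the vector.

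Cardiomyocyte genes dominated every library, with the 10 marker genes summing to between 27230 and 42330 RPKM, and the ranges of the 3 groups overlapped. The summed level of 6 endothelial markers was 140.9 to 165.7 in control, 277.2 to 370.9 under null virus and 235.2 to 259.5 under USP28 virus. Fabp4, a fatty acid binding protein, was the largest single part of it. Fabp4 alone was 68.0 to 102.4 in control, 184.9 to 299.7 under null virus and 147.4 to 163.6 under USP28 virus. Of the others, Cdh5, Kdr and Tie1 overlapped between control and null virus, and Pecam1 and Esam did not. With null virus Fabp4 and Esam, 2 of the 6, passed as higher than control, while Tie1 (0.13 log2, limma adjusted p = 0.39) and Kdr (-0.48, adjusted p = 0.08) did not pass. In the same comparison 4 of 7 fibroblast markers, 3 of 6 macrophage markers and 1 of the 10 cardiomyocyte markers, Ttn (-0.77 log2, adjusted p = 0.021), fell. Over all tested genes 9.87% passed there as higher and 12.2% as lower. The other 3 fibroblast markers, Dcn (0.31 log2), Tcf21 (0.67) and Pdgfra (0.10), stood above control and did not pass. The summed fibroblast level overlapped, at 95.4 to 112.4 RPKM in control and 95.7 to 108.9 under null virus. With USP28 virus 3 endothelial markers (Tie1, Fabp4 and Esam) and Pdgfrb passed as higher than control, and Col1a1, Col1a2 and Cx3cr1 as lower. The share of all tested genes was 5.29% as higher and 6.4% as lower. Between the db/db groups 1 of the 7 fibroblast markers, Lum, passed as higher with USP28 virus (1.0 log2, limma adjusted p = 0.029). Of all tested genes 0.291% passed as higher there. The other 6 did not pass. Col1a2 (0.60 log2), Dpt (0.29), Pdgfra (0.23) and Tcf21 (0.06) stood above null virus, and Col1a1 (-0.23) and Dcn (-0.03) below it. The 5 adipocyte markers summed to at most 0.325 RPKM and the 4 lymphocyte markers to at most 0.199. The 4 atrial markers summed to 152.8 in USP28-virus replicate 1 and to at most 10.3 in the other 8 libraries. The part of these cell types in the results was not tested, and in bulk tissue fewer cells of a type and less RNA per cell cannot be told apart.

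On GRCm38 the 10 genes lie on 9 chromosomes, with Pdk3 and Pdha1 both on the X chromosome. Pdk4 spans chr6:5483351-5496309 on the minus strand and Pdk2 chr11:95026258-95041354 on the minus strand. Pdk1 spans chr2:71873224-71903858 on the plus strand, Pdp1 chr4:11958184-11966452 on the minus strand and Dlat chr9:50634633-50659780 on the minus strand. Pdhb spans chr14:8165991-8172992 and Pdha1 chrX:160122209-160138413, both on the minus strand. For 9 of the 10 the span in the table is that of GENCODE M21, and the span of Pdhb differs.

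The proximal promoters of 4 of these genes are shown because Pdk4 carries the largest difference, Pdk2 is a kinase of the same family that did not pass in any comparison, and Pdhb and Dlat are the subunits that fell together. Each is the RefSeq window on GRCm38.p6 from 250 bases before to 50 bases after the start, written 5′ to 3′ on the gene's strand, with motif matches in capitals. Pdk4 lies at chr6:5496229-5496528, Pdk2 at chr11:95041322-95041621, Pdhb at chr14:8172943-8173242 and Dlat at chr9:50659731-50660030, all on the minus strand.

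Pdk4: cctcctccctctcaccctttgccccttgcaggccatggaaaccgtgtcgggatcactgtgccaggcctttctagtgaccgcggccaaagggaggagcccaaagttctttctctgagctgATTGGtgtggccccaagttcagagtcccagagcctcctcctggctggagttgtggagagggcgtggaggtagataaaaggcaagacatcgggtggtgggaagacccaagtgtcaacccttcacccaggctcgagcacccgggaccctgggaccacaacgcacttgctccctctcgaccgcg
Pdk2: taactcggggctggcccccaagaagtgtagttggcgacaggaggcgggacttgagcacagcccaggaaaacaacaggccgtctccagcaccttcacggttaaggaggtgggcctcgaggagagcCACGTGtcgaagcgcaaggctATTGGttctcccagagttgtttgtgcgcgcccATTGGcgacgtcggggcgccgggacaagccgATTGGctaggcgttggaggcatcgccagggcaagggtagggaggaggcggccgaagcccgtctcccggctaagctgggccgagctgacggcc
Pdhb: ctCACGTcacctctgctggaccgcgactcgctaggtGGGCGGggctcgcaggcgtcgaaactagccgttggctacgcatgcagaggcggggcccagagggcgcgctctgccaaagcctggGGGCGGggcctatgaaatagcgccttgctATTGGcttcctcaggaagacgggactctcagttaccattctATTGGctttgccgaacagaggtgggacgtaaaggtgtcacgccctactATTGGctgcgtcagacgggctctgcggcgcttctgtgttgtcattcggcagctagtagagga
Dlat: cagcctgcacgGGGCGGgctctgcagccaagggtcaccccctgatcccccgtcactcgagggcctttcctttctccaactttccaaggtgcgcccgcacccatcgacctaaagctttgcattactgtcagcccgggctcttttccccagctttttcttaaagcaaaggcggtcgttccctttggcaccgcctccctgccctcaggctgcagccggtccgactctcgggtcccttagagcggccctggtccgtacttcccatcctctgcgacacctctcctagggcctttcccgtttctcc

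The Pdk4 window holds a single match, to the CCAAT box (CCAAT), on the opposite strand with its first base at -131. The Pdk2 window holds 3 CCAAT boxes and a palindrome that matches the hypoxia response element core (ACGTG) on both strands. The Pdhb window holds 3 CCAAT boxes, 2 GC boxes (GGGCGG) and 1 hypoxia core, and the Dlat window holds 1 GC box. CCAAT boxes are in 37.4% of the 32851 RefSeq windows of the same length, GC boxes in 35.7% and hypoxia cores in 19.6%, on either strand. Windows were found for 9 of the 10 members, 12 in all since Pdk1, Pdk2 and Mpc1 have 2 starts each, and Pdp1 had no entry. Among the 12 windows, 7 hold a GC box, 6 a CCAAT box, 3 a hypoxia core and 1, at the second Mpc1 start, the nuclear receptor hexamer AGGTCA, which overlaps longer receptor elements and is in 16.3% of all windows. None of the 12 holds the perfect form of the PPAR direct repeat (in 0.04% of all windows), the estrogen-related receptor element TCAAGGTCA (0.42%) or the perfect glucocorticoid response element (0.01%). Nor does any hold the forkhead site GTAAACA (3.65%), the palindromic NRF1 site (0.97%) or the TATA box TATAAA (13.6%). A match is a run of letters and no match says only that the letters are not in that window.

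From control to null virus, Pdk4 rose while Pdp1, Pdhb and Dlat fell, so 4 of the 9 members that could be tested passed, with 1 higher and 3 lower. In that comparison 22.1% of all tested genes passed, 9.87% as higher and 12.2% as lower. The members' median difference was -0.16 log2, against 0.00 over all tested genes. Between USP28 virus and null virus, Pdk4 fell and no other member passed, where 0.447% of all genes passed. Between USP28 virus and control, Pdk4 was higher and Pdhb and Dlat were lower, 3 of 9, where 11.7% of all genes passed, 5.29% as higher and 6.4% as lower. The groups did not overlap for 7 of 9 members in null virus against control and in USP28 virus against control, and for 2 of 9 in USP28 virus against null virus, where 41.2%, 45.5% and 23.2% of all tested genes did not overlap (24% as lower in USP28 virus against control). Each group takes part in 2 of the 3 comparisons, so their values are given side by side and are not independent.

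**Figure D1:**
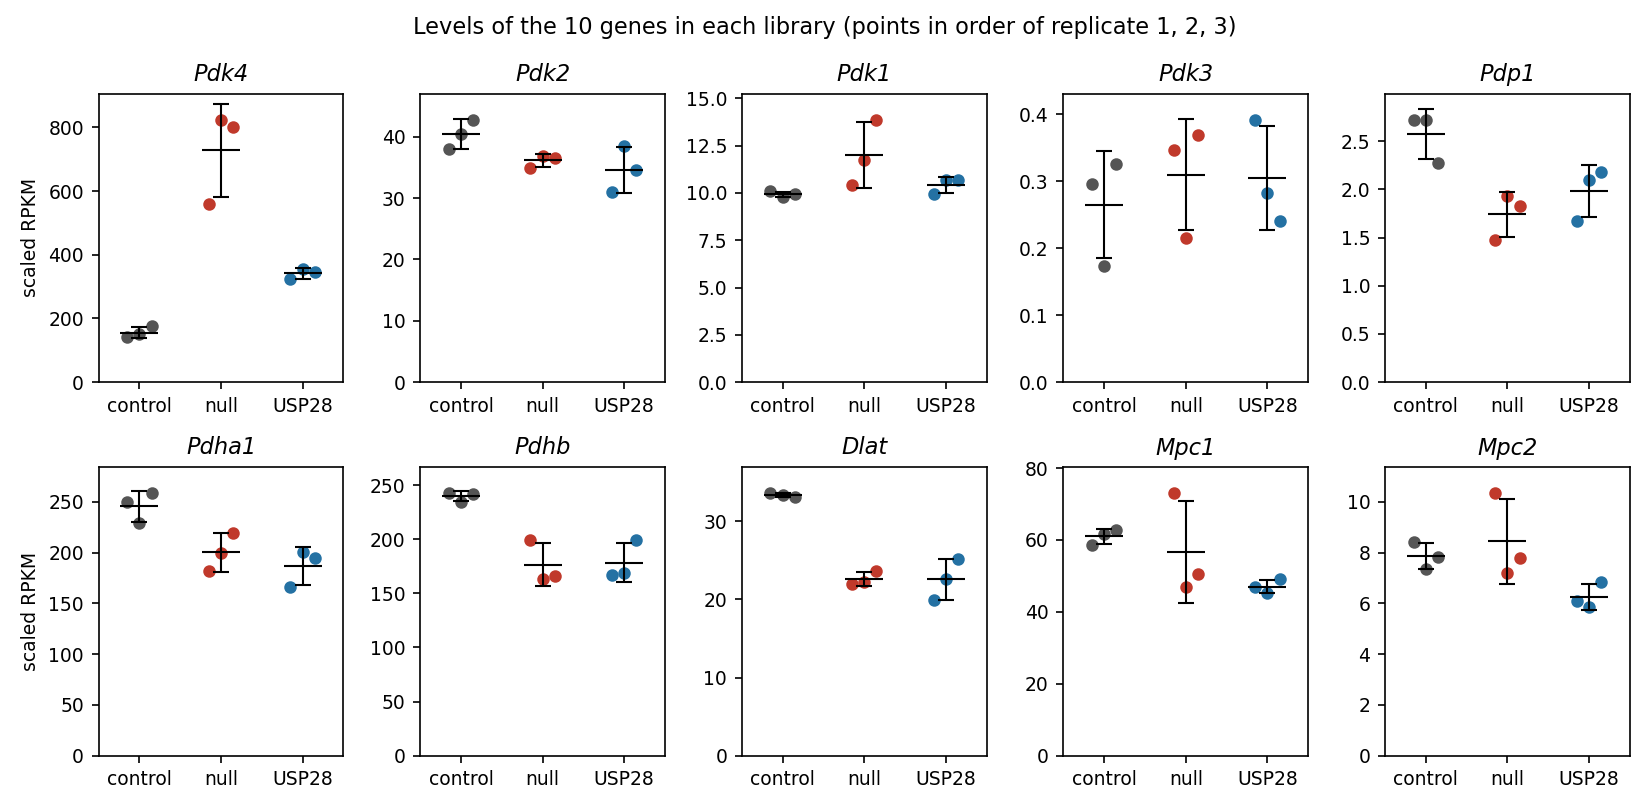
Scaled RPKM of the 10 genes in each library, 1 panel per gene with its own axis from 0. Points are libraries in the order replicate 1, 2, 3, long bars are group means and whiskers are 1 SD (n = 3). Pdk4 separates all 3 groups, Dlat separates control from both db/db groups, and Pdk3 stays under 0.4 RPKM.

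Pdk4 encodes the kinase with the strongest known response to fatty acids, and it was the most abundant kinase mRNA in every library. Its level was 141.5, 150 and 176.2 RPKM in control, 560, 824.1 and 801.7 with null virus, and 323.7, 356.7 and 346.9 with USP28 virus. The 3 groups did not overlap: every null-virus library lay above every USP28-virus library, and every USP28-virus library above every control. It rose from control to null virus by 2.21 log2, 4.62-fold (SE 0.17, 95% interval 1.84 to 2.58, limma adjusted p = 0.00043). It ranked 33rd from the top among the 14104 tested genes in that comparison. With USP28 virus it stood 1.14 log2 above control, 2.20-fold (SE 0.17, interval 0.77 to 1.51, adjusted p = 0.0062). In the order of mean levels over all genes it moved from place 232 in control to 77 with null virus and 121 with USP28 virus. Both rises passed under all 21 alternative settings, with 2.11 to 2.39 log2 for null virus and 1.07 to 1.23 for USP28 virus against control.

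For USP28 virus against null virus, Pdk4 fell by 1.07 log2 with USP28 virus, a mean of 47.0% of the null-virus level (SE 0.17, interval -1.44 to -0.70, limma adjusted p = 0.042). The size of this difference varied little with the library left out, from -0.97 to -1.26 log2, but the call did not hold. It passed without null-virus replicate 1, at -1.26 log2 and an adjusted p of 0.00097. It did not pass without control replicate 1 (adjusted p = 0.063), 2 (0.088) or 3 (0.061), null-virus replicate 2 (0.1) or 3 (0.097), or USP28-virus replicate 1 (0.15), 2 (0.17) or 3 (0.14). It also missed the threshold with the 2 groups fitted alone (0.15), with library totals as the scaling (0.099), without the filter on low values (0.064) and with the replicate number as a block (0.067). Null-virus replicate 1, the library that stands apart, had the lowest Pdk4 of its group, 0.54 log2 below the mean of the other two.

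Pdk2, the broadly expressed family member, was the second most abundant kinase mRNA. It measured 37.9, 40.5 and 42.8 RPKM in control, 34.9, 36.9 and 36.6 with null virus, and 30.9, 38.4 and 34.6 with USP28 virus. All null-virus values lay below all control values, by a narrow margin, and the USP28-virus values overlapped both groups. The difference from control was -0.16 log2 with null virus (95% interval -0.39 to 0.07, limma adjusted p = 0.29) and -0.22 with USP28 virus (-0.46 to 0.01, adjusted p = 0.19), and neither passed. Between the db/db groups it was -0.07 (-0.30 to 0.17, adjusted p = 0.77).

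Pdk1, a kinase gene known as a target of hypoxia signalling, measured 10.1, 9.80 and 9.93 RPKM in control, 10.4, 11.8 and 13.9 with null virus, and 9.95, 10.7 and 10.7 with USP28 virus. The null-virus libraries all lay above control, and their spread was wider than that of the other groups. The difference of 0.26 log2 (95% interval 0.01 to 0.51) did not pass (limma adjusted p = 0.12), but did without null-virus replicate 1 (0.36, adjusted p = 0.012) and with the length trend removed (0.40, adjusted p = 0.01). The USP28-virus group differed from control by 0.07 (-0.18 to 0.32) and from null virus by -0.19 (-0.44 to 0.06), and neither passed (adjusted p = 0.73 and 0.4). Pdk3, the remaining kinase gene, was near the lower end of detection at 0.17 to 0.39 RPKM, and the 3 groups overlapped. It did not pass the filter, and without a filter its differences were 0.17, -0.01 and 0.16 log2 for null virus against control, USP28 virus against null virus and USP28 virus against control, each with an interval that spans 0 (adjusted p = 0.73, 0.99 and 0.8).

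The make-up of kinase mRNA is given as ratios of RPKM within a library, which no scaling between libraries affects. The ratios do depend on the gene lengths in the table. For Pdk1, Pdk2, Pdk3 and Pdk4 these are 1.5, 1.41, 1.21 and 1.01 times the length of the principal transcript, which favours the share of Pdk4. Pdk4 made up 74.5%, 74.8% and 76.9% of the summed RPKM of Pdk1 to Pdk4 in control, 92.5%, 94.4% and 94.0% with null virus, and 88.7%, 87.8% and 88.4% with USP28 virus. The share of Pdk2 was 19.6% ± 0.839 in control, 4.76% ± 0.868 under null virus and 8.92% ± 0.50 under USP28 virus (SD, n = 3). Summed kinase RPKM per unit of Pdha1, the gene of the subunit they phosphorylate, was 0.841 ± 0.0700 in control, 3.87 ± 0.520 under null virus and 2.08 ± 0.106 under USP28 virus. Without Pdk4 the same ratio was 0.207 ± 0.0136, 0.243 ± 0.0104 and 0.243 ± 0.00808, so nearly all of the difference in the sum was Pdk4. Pdk4 over Pdp1, kinase mRNA against phosphatase mRNA, was 61.5 ± 13.9, 415.2 ± 32.4 and 174.4 ± 17.7 in the same order. These ratios restate the levels above and were not tested.

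**Figure D2:**
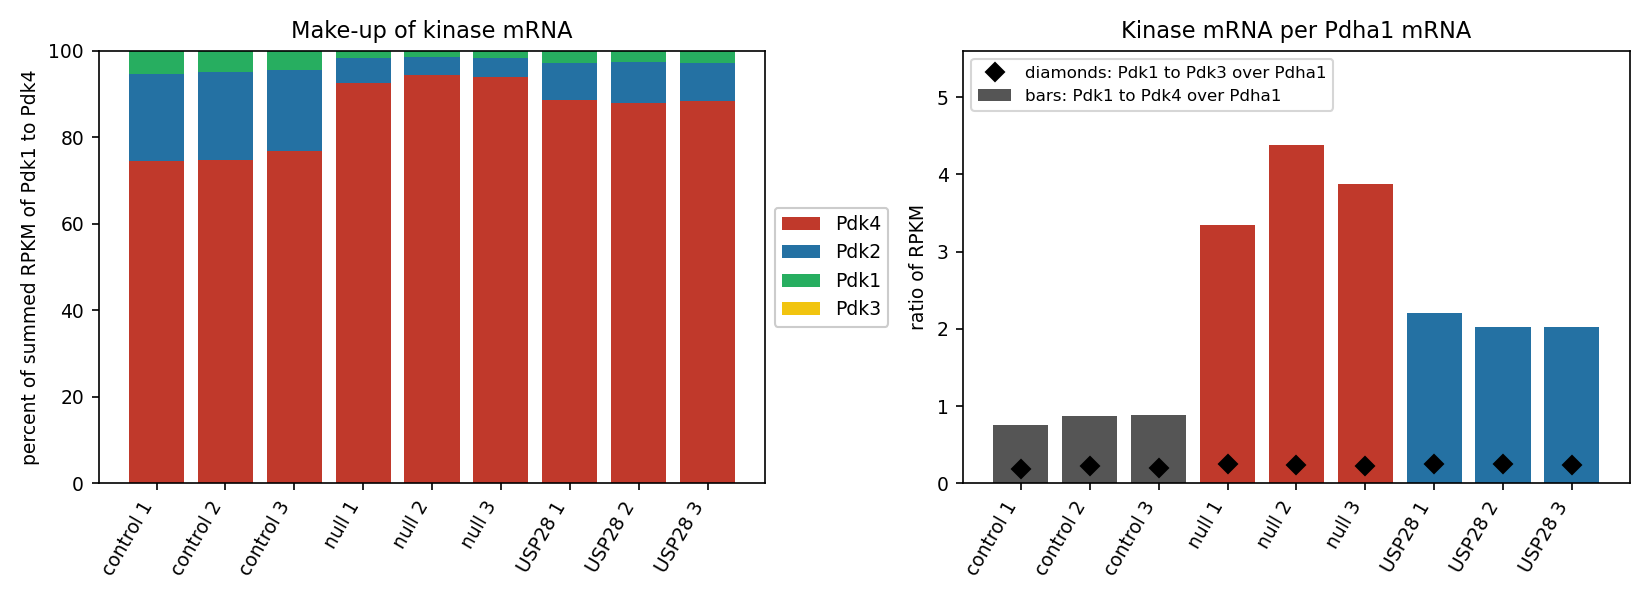
Left, percent of the summed RPKM of Pdk1 to Pdk4 taken by each gene in each library, with Pdk3 too small to see. Right, summed RPKM of Pdk1 to Pdk4 over Pdha1 (bars, coloured by group: control grey, null virus red, USP28 virus blue) and the same without Pdk4 (diamonds). The bars run from 0.761 to 0.887 in control, 3.34 to 4.38 under null virus and 2.02 to 2.20 under USP28 virus, and the diamonds stay between 0.194 and 0.252.

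Pdp1, the calcium-stimulated phosphatase catalytic subunit that reactivates the complex, measured 2.72, 2.72 and 2.27 RPKM in control, 1.48, 1.93 and 1.82 with null virus, and 1.67, 2.09 and 2.18 with USP28 virus. Every db/db library lay below every control library, and the db/db groups overlapped. It fell from control to null virus by 0.54 log2 (SE 0.15, 95% interval -0.87 to -0.20, limma adjusted p = 0.033). With USP28 virus it stood -0.36 from control (-0.70 to -0.03, adjusted p = 0.15) and 0.17 from null virus (-0.16 to 0.51, adjusted p = 0.56), and neither passed. The fall with null virus was lost without control replicate 1 (adjusted p = 0.089), 2 (0.11) or 3 (0.052) and, at 0.05, without USP28-virus replicate 2, while its size stayed between -0.61 and -0.43 log2 over the libraries left out. It also missed the threshold with library totals (0.076), without the filter (0.054) and with the 2 groups alone (0.064).

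Dlat, the acetyltransferase core of the complex, had a smaller adjusted p than Pdha1 and Pdhb in both comparisons with control. It measured 33.6, 33.4 and 33.1 RPKM in control, 22.0, 22.2 and 23.7 with null virus, and 19.9, 22.6 and 25.1 with USP28 virus. Control stood above both db/db groups with no overlap, and the null-virus range lay inside the wider USP28-virus range. Dlat fell by 0.56 log2 with null virus (SE 0.10, limma adjusted p = 0.0064), to 67.8% of control, and that call held under all 21 alternatives. With USP28 virus it was lower than control by -0.57 log2 (adjusted p = 0.011), and that call was lost without control replicate 2 or USP28-virus replicate 1 (0.052 each). For USP28 virus against null virus the difference was -0.01 log2 (95% interval -0.24 to 0.22, adjusted p = 0.97).

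Pdhb, the E1 beta subunit, measured 242.4, 234.6 and 242.1 RPKM in control, 199, 163.5 and 166 with null virus, and 166.8, 168.6 and 198.8 with USP28 virus. Again every db/db library was below every control library, with 1 library of each db/db group near 199. It fell by 0.45 log2 with null virus (SE 0.12, limma adjusted p = 0.028), a call lost without control replicate 1 (0.082), 2 (0.081) or 3 (0.098) or null-virus replicate 2 (0.074) or 3 (0.066). It was lower by -0.43 log2 with USP28 virus than in control (adjusted p = 0.047), a call that held in 1 of 9 fits with a library left out, the fit without null-virus replicate 1 (0.0038). In the other 8 of those fits the adjusted p was 0.12, 0.12 and 0.15 without control replicates 1, 2 and 3, 0.058 without either of null-virus replicates 2 and 3, and 0.17, 0.13 and 0.063 without USP28-virus replicates 1, 2 and 3. It also missed the threshold with the replicate number as a block (0.076), with median-of-ratios scaling (0.056) and without the filter (0.07), and the call for null virus missed it with the 2 groups alone (0.069). Between the db/db groups the difference was 0.02 (95% interval -0.25 to 0.29, adjusted p = 0.96).

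Pdha1, the E1 alpha subunit that carries the phosphorylation sites, measured 249.6, 228.7 and 258.4 RPKM in control, 181.4, 199.4 and 219.6 with null virus, and 165.6, 200.9 and 194.3 with USP28 virus. Its db/db libraries also lay below control, but the differences of -0.30 log2 with null virus (95% interval -0.57 to -0.02) and -0.40 with USP28 virus (-0.67 to -0.12) did not pass (limma adjusted p = 0.11 and 0.066). The latter passed without null-virus replicate 1 (adjusted p = 0.011), with the 2 groups alone (0.019), with limma voom (0.043) and with the length trend removed (0.044). For USP28 virus against null virus it was -0.10 (-0.37 to 0.18, adjusted p = 0.7). Pdha1 and Pdhb, whose products pair in equal number in E1, were at near-equal RPKM, with a ratio of 1.02 ± 0.0466 in control, 1.15 ± 0.214 under null virus and 1.05 ± 0.119 under USP28 virus (SD, n = 3). The near-equality depends on the lengths in the table, 3734 bases for Pdha1 and 1485 for Pdhb. They are 1.31 and 0.981 times the length of the principal transcript. Exons of Pdha1 overlap those of Map3k15 on the opposite strand over 16.1% of their bases, and Map3k15 was listed at 18.1 to 23.3 RPKM. No strand setting of the counting is given in the sources used here.

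For both genes of the pyruvate carrier the null-virus group overlapped control. Mpc1 measured 58.6, 61.6 and 62.8 RPKM in control, 73.0, 46.8 and 50.4 with null virus, and 46.9, 45.2 and 49.0 with USP28 virus. Null-virus replicate 1 was the highest of all 9 libraries while the other two null-virus libraries were below every control. The difference with null virus was -0.13 log2 (95% interval -0.49 to 0.22, limma adjusted p = 0.57), and without that library it was -0.32 and passed (adjusted p = 0.0074). With USP28 virus all 3 libraries were below control, by -0.37 log2 (-0.73 to -0.02, adjusted p = 0.15), which passed without null-virus replicate 1 (adjusted p = 0.0028) and with the 2 groups alone (0.0063). Between the db/db groups it was -0.24 (-0.60 to 0.11, adjusted p = 0.45).

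Mpc2 measured 8.43, 7.37 and 7.81 RPKM in control, 10.3, 7.18 and 7.80 with null virus, and 6.08, 5.86 and 6.85 with USP28 virus. The USP28-virus libraries were the lowest 3 of the 9. The difference was -0.41 log2 from null virus (95% interval -0.73 to -0.09, limma adjusted p = 0.2) and -0.33 from control (-0.64 to -0.01, adjusted p = 0.17), and neither passed. The latter did pass without null-virus replicate 1 (adjusted p = 0.021) and with the 2 groups alone (0.033). Null virus stood 0.08 from control (-0.24 to 0.40, adjusted p = 0.69) and -0.06 without that library. Mpc1 over Mpc2 was 7.79 ± 0.732 in control, 6.68 ± 0.332 under null virus and 7.53 ± 0.319 under USP28 virus (SD, n = 3). That ratio depends on the lengths in the table, 2082 bases for Mpc1 and 7344 for Mpc2, which are 2.17 and 7.17 times the length of the principal transcript. Exons of Mpc1 also overlap 4930506C21Rik on the opposite strand over 23.1% of their bases, and that gene was listed at 31.7 to 43.1 RPKM.

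**Figure D3:**
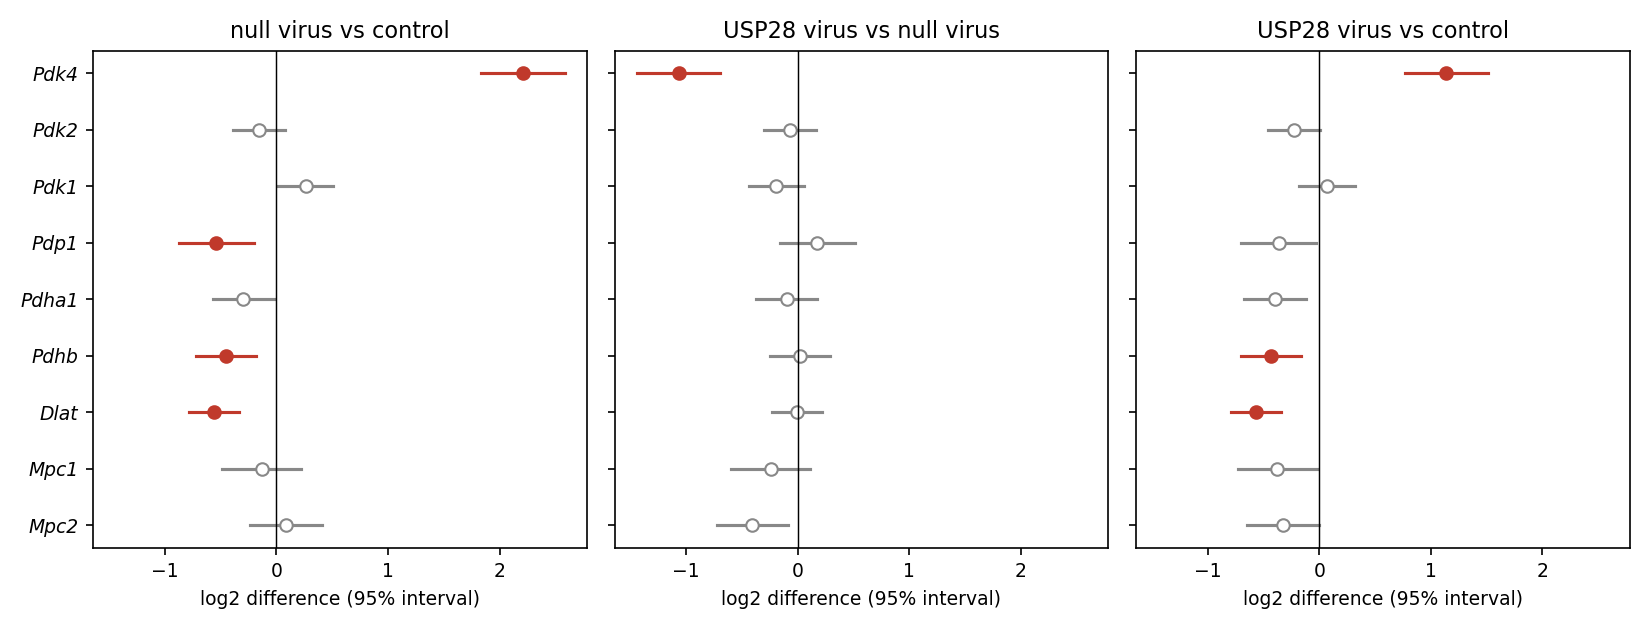
Log2 differences of the 9 tested members in the 3 comparisons, with 95% intervals from limma. Filled red points passed (Benjamini-Hochberg adjusted p under 0.05) and open grey points did not. Pdk4 lies at 2.21, -1.07 and 1.14 from left to right, and every other member stays closer to 0 than Pdk4 in each panel.

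Of the other 5 genes of the complex and its phosphatases, 4 could be tested, and in each of the 4 every db/db library lay below every control library. Over all tested genes, 22.1% lay below control without overlap with null virus and 24% with USP28 virus. Pdhx, the E3-binding protein, was 23.8, 24.6 and 24.6 RPKM in control, 16.5, 19.1 and 21.2 with null virus, and 15.2, 14.5 and 15.5 with USP28 virus. Its 3 groups did not overlap, with USP28 virus lowest. Dld, the E3 dehydrogenase shared with the sister complexes, was 220.3, 212.1 and 220 in control, 181.2, 157.9 and 163.1 with null virus, and 140.4, 150.7 and 161.7 with USP28 virus. Its db/db groups overlapped. Pdp2, the second phosphatase, averaged 2.5 ± 0.0592, 1.42 ± 0.501 and 1.21 ± 0.283 RPKM in control, null virus and USP28 virus (SD, n = 3). Pdpr, the regulatory subunit of the phosphatase, averaged 5.88 ± 0.343, 2.35 ± 1.08 and 2.93 ± 0.635 in the same order. For both, null-virus replicate 1 was the lowest of the 9 libraries, at 0.877 for Pdp2 and 1.11 for Pdpr.

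From control to null virus all 4 fell, Pdhx by 0.37 log2 (limma adjusted p = 0.036), Dld by 0.38 (0.03), Pdp2 by 0.83 (0.048) and Pdpr by 1.41 (0.019). Among all tested genes 12.2% fell there, and 6.4% between USP28 virus and control. Between USP28 virus and control 3 fell, Pdhx by 0.69 (0.0069), Dld by 0.53 (0.015) and Pdp2 by 1.01 (0.037), and Pdpr, at -1.0, did not pass (0.085). Pdpr did pass without null-virus replicate 1 (0.002) and with limma voom (0.025), and all 4 passed there with the 2 groups alone. Over all genes 3771 passed there with the 2 groups alone, against 1649 in the main fit. For USP28 virus against null virus limma called 0 of the 4, and limma voom on the recovered reads 0. Tested genes with an unadjusted p under 0.05 there numbered 2332 of 14104, and 1 of the 4 was among them. That 1 was Pdhx, at -0.32 log2 (95% interval -0.56 to -0.09, adjusted p = 0.17), which passed without null-virus replicate 1 (0.012). With null virus, the fall of Pdpr passed in 7 of 9 fits with a library left out, Dld in 3, Pdhx in 2 and Pdp2 in 1, and without control replicate 2 or 3 none of the 4 passed. The fall of Pdp2 was also lost without null-virus replicate 1. With the 2 groups alone 0 of the 4 passed between null virus and control, and with library totals 2 passed there and 1 passed between USP28 virus and control. Against control, the fall of Pdhx with USP28 virus passed in 9 of 9, Dld in 5 and Pdp2 in 3. Pdha2, the testis form of E1 alpha, was listed at 0 in 8 libraries and at 0.0279 RPKM in null-virus replicate 1.

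**Figure D4:**
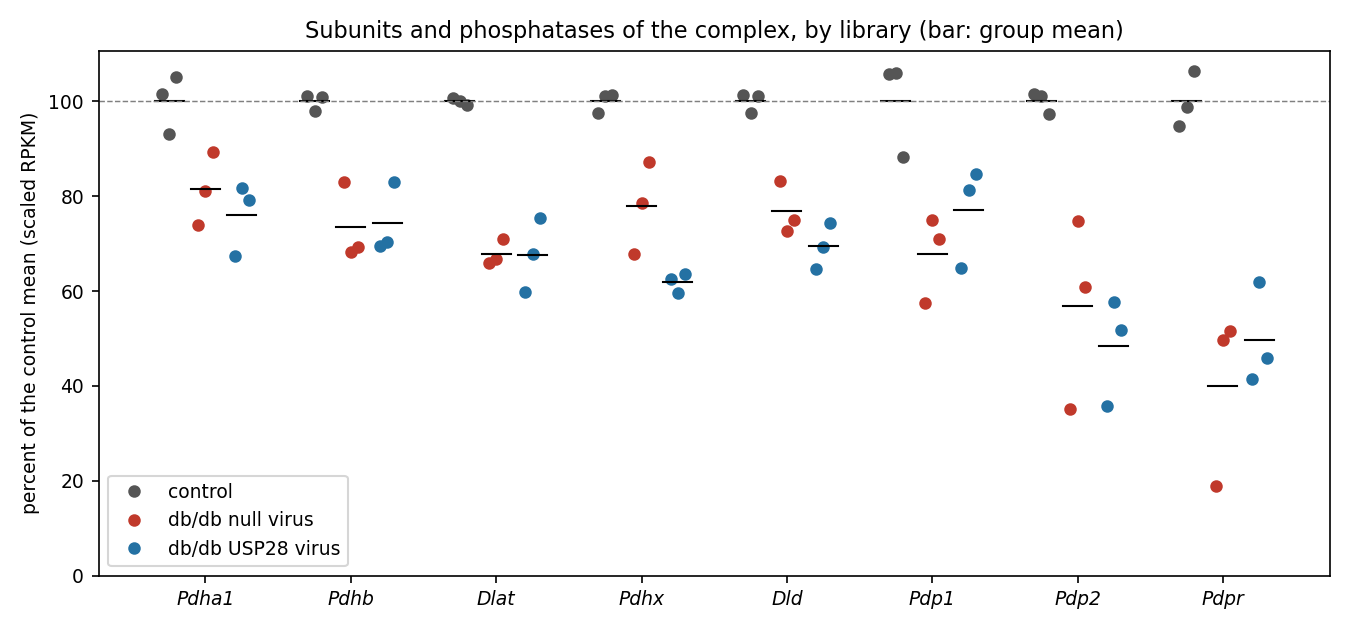
Each library's scaled RPKM as a percent of the control mean (dashed line) for the 5 subunits and 3 phosphatase genes. Points are libraries and bars are group means. All db/db points of these 8 genes lie at or under 89.4% of the control mean, and Pdpr in null-virus replicate 1 is lowest at 18.9%.

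The complex needs lipoate on Dlat and thiamine pyrophosphate on E1, and 10 of 13 genes for making or importing these cofactors could be tested. From control to null virus 2 fell and 1 rose, with a list median of -0.07 log2, and with USP28 virus 2 were lower than control. These counts stand beside 22.1% and 11.7% of all tested genes that passed in the 2 comparisons. Isca1, an iron-sulfur cluster assembly factor on the lipoate route, fell by 0.54 log2 with null virus and by 0.52 with USP28 virus against control (limma adjusted p = 0.006 and 0.013), the second lost without control replicate 2 or 3 or USP28-virus replicate 1 (up to 0.063). Iba57, of the same assembly route, rose by 0.40 with null virus (adjusted p = 0.028), a call lost without any 1 control library or null-virus replicate 2 (up to 0.1). Bola3, needed for lipoate on the complex, was -0.52 from control with USP28 virus and did not pass (adjusted p = 0.064), but did without null-virus replicate 1 (0.0019) and with limma voom (0.035). Without null-virus replicate 1 the counts were 5 for null virus and 4 for USP28 virus against control. Over all genes 4434 and 4105 passed there, against 3119 and 1649 in the main fit. Iba57 did not pass with library totals, with the replicate block or with the 2 groups alone. Between the db/db groups 0 of the 10 passed by limma or by voom. An unadjusted p under 0.05 was found there for 2 of them and for 2332 of all 14104 tested genes.

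Of 12 measured genes for other sources and fates of pyruvate, 10 were tested, and 4 fell from control to null virus with a list median of -0.47 log2. Over all tested genes 12.2% fell there, and 6.4% were lower with USP28 virus than in control. Pkm, muscle pyruvate kinase, which makes pyruvate in glycolysis, fell from 103.4 ± 3.12 RPKM in control to 72.8 ± 3.52 with null virus (-0.51 log2, limma adjusted p = 0.0071), in 9 of 9 fits with a library left out. Gpt2, the mitochondrial alanine aminotransferase, fell by 0.85 log2 (adjusted p = 0.0048), also in 9 of 9. Gpt, the cytosolic enzyme, fell by 0.93 (0.015), lost without control replicate 1 or 3 (up to 0.055). Pcx, pyruvate carboxylase, which feeds pyruvate into oxaloacetate, fell by 0.85 (0.043), lost without any 1 control or USP28-virus library (up to 0.12). With USP28 virus 3 of the 10 were lower than control: Pkm by -0.41 log2 (adjusted p = 0.025), Gpt2 by -0.70 (0.018) and Pcx by -1.29 (0.016). Each of these 3 was lost in some fits with a library left out, passing in 3, 5 and 4 of 9 fits in that order, and 0 of the 10 passed with library totals as the scaling, 2 with the replicate block and 5 with the 2 groups alone. Without USP28-virus replicate 1 or 3, or control replicate 2, 0 of the 10 passed against control, and without null-virus replicate 1 it was 6. Over all genes 4105 passed in that last fit and 3771 with the 2 groups alone, against 1649 in the main fit. For USP28 virus against null virus 0 of the 10 passed by limma or by voom. An unadjusted p under 0.05 was found for 1 of them and for 2332 of all 14104 tested genes. Without null-virus replicate 1 the count that passed was 3, where 925 of all genes passed, against 63 in the main fit.

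The sister complexes, which oxidise 2-oxoglutarate and branched-chain 2-oxoacids by the same chemistry, had 7 tested genes, of which 3 fell with null virus (list median -0.38 log2). The share of all tested genes that fell was 12.2% with null virus and 6.4% with USP28 virus against control. Dbt, the E2 core of the branched-chain complex, averaged 13.3 ± 0.0594 RPKM in control, 8.40 ± 0.308 under null virus and 7.63 ± 0.777 under USP28 virus (SD, n = 3), and fell by 0.66 and 0.80 log2 against control (limma adjusted p = 0.0026 and 0.0035), in 9 of 9 fits each. Dlst, the E2 core of the 2-oxoglutarate complex, averaged 161 ± 3.08, 106.2 ± 6.04 and 106.2 ± 10.7 and fell by 0.60 in both (0.0056 and 0.011). Its second call was lost without control replicate 2 or 3 or USP28-virus replicate 1 (up to 0.055). Ogdh, the E1 enzyme of the 2-oxoglutarate complex and the third gene that fell with null virus (0.38 log2, adjusted p = 0.036), did not pass with USP28 virus (-0.37, 0.059). Its fall passed in 2 of 9 fits with a library left out (adjusted p 0.015 to 0.12), those without null-virus replicate 1 or 3, and it is named after its values were seen. Bckdhb, the E1 beta subunit of the branched-chain complex, stood 0.12 and -0.41 from control with null and USP28 virus (adjusted p = 0.55 and 0.082), and Ppm1k, that complex's phosphatase, -0.53 and -0.66 (0.068 and 0.051). In the comparison of USP28 virus with control, 5 of the 7 passed without null-virus replicate 1 and 4 with limma voom or with the 2 groups alone. Over all genes 4105 passed without that library and 3771 with the 2 groups alone, against 1649 in the main fit. Between the db/db groups 0 of the 7 passed by limma or by voom. An unadjusted p under 0.05 was found there for 1 of them and for 2332 of all 14104 tested genes.

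Among 11 transcription factors and coactivators known to act on kinase genes, 3 fell and 1 rose from control to null virus (list median -0.40 log2). Of all tested genes, 22.1% passed in that comparison and 11.7% between USP28 virus and control. Ppara, the fatty acid receptor known to activate Pdk4, was 2.79, 2.92 and 2.75 RPKM in control, 0.642, 1.05 and 1.58 with null virus, and 1.99, 1.91 and 2.20 with USP28 virus. Its 3 groups did not overlap and their order was the reverse of that of Pdk4. It fell by 1.37 log2 with null virus (SE 0.25, limma adjusted p = 0.0069, 9 of 9 fits), and the difference of 0.92 between USP28 virus and null virus (95% interval 0.35 to 1.48) did not pass (adjusted p = 0.13). Its deposited values in USP28-virus replicates 1 and 2 are not whole numbers of reads, unlike all 90 values of the members. Ppargc1a, the coactivator PGC-1alpha, fell by 0.74 (0.031) and Nr3c1, the glucocorticoid receptor, by 0.40 (0.033), and Myc rose by 1.20 (0.03). Without control replicate 2 the calls of these 3 were lost (up to 0.12), as were those of Ppargc1a and Nr3c1 without control replicate 3, Myc without control replicate 1, and Nr3c1 without null-virus replicate 2 or USP28-virus replicate 3. With USP28 virus 0 of the 11 passed against control or against null virus by limma, and 1 and 0 by voom. An unadjusted p under 0.05 was found for 4 in each, and over all 14104 tested genes for 3987 and 2332. Against control the count that passed was 5 without null-virus replicate 1 and 4 with the 2 groups alone. Over all genes 4105 and 3771 passed in those fits, against 1649 in the main fit. Pparg was the 1 by voom (limma voom adjusted p = 0.04), and Ppara and Pparg were both among the 5. The deposited values of Pparg in all 6 db/db libraries are not whole numbers of reads, and it is named after its values were seen. For null virus against control the count of the 11 was 7 with limma voom, 2 with library totals and 1 with the 2 groups alone. Over all genes it was 3534, 2428 and 1660 in that order, against 3119 in the main fit.

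Of 8 tested hypoxia targets, the response that Pdk1 belongs to, 1 rose and 2 fell from control to null virus (list median 0.25 log2). As a share of all tested genes, 22.1% passed there and 11.7% between USP28 virus and control. Bnip3, a mitophagy receptor, was 53.0, 52.8 and 60.9 RPKM in control, 93.8, 113.2 and 131.8 with null virus, and 63.7, 68.2 and 75.1 with USP28 virus. The 3 groups did not overlap and their order was that of Pdk4. Bnip3 rose by 1.01 log2 with null virus (SE 0.14, limma adjusted p = 0.0023), and the difference of -0.70 between the db/db groups (95% interval -1.01 to -0.39) did not pass (adjusted p = 0.072), but did without null-virus replicate 1 (0.0048) and with limma voom (0.035). Egln3, an oxygen-sensing prolyl hydroxylase, fell by 1.32 with null virus and by 1.63 with USP28 virus against control (0.014 and 0.011), the first lost without control replicate 2 or 3 and the second without control replicate 3 or USP28-virus replicate 1 (up to 0.057). Vegfa, the endothelial growth factor gene, fell by 0.87 with null virus (0.021), lost without control replicate 2 or 3 or null-virus replicate 2 or 3 (up to 0.085), and is named after its values were seen. Pfkfb3, a glycolytic regulator, was higher by 1.51 with USP28 virus than in control (0.015), lost without control replicate 2 or 3 or USP28-virus replicate 1 or 2 (up to 0.063). Ldha, which makes lactate from pyruvate, stood -0.39 log2 from null virus with USP28 virus (95% interval -0.61 to -0.18, adjusted p = 0.1). For USP28 virus against null virus 0 of the 8 passed by limma and 1, Bnip3, by voom. An unadjusted p under 0.05 was found for 4 of them and for 2332 of all 14104 tested genes. Without null-virus replicate 1 the count that passed was 2, where 925 of all genes passed, against 63 in the main fit. With the 2 groups alone 2 of the 8 passed for null virus and 4 for USP28 virus against control. Over all genes 1660 and 3771 passed in those fits.

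The genes nearest to Pdk4 in pattern were sought among 3993 genes with a mean of at least 5 RPKM, by the root mean square difference of log2 values over the 9 libraries after centring each gene on its mean. The 5 nearest were Tmem100 (0.17), Cyp4b1 (0.27), Ctgf (0.32), Fmo2 (0.32) and Ucp3 (0.33), where the median over all compared genes was 0.92 and the SD of Pdk4 itself was 0.97. Ucp3, a mitochondrial uncoupling protein gene, was 21.1, 14.0 and 14.7 RPKM in control, 60.6, 62.1 and 55.0 with null virus, and 38.6, 35.1 and 37.5 with USP28 virus. Tmem100, a transmembrane protein gene, averaged 3.14 ± 0.0743, 11.9 ± 2.42 and 6.52 ± 0.592 in the same order (SD, n = 3). All 5 were chosen for this pattern, so their levels are a description. Nearest to Pdk2 were Ube2r2 (0.03), Mpv17 (0.06), Dnaja2 (0.07), Vdac1 (0.07) and a gene whose symbol stands in the table as the date 7-Sep (0.07), against a median of 0.26. The SD of Pdk2 itself was 0.14. Nearest to Pdha1 were Ttc7b (0.04), Cs (0.04), Rab5b (0.05), Vapb (0.05) and Got2 (0.05), against a median of 0.29. The SD of Pdha1 itself was 0.21. Pdk2 and Pdha1 thus varied little, and a gene that varies little lies near them for that reason alone. Cs encodes citrate synthase, the first enzyme of the tricarboxylic acid cycle, and measured 106.7 ± 7.54, 85.1 ± 8.77 and 78.8 ± 11 RPKM in control, null virus and USP28 virus (SD, n = 3). Got2 encodes the mitochondrial aspartate aminotransferase.

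**Figure D5:**
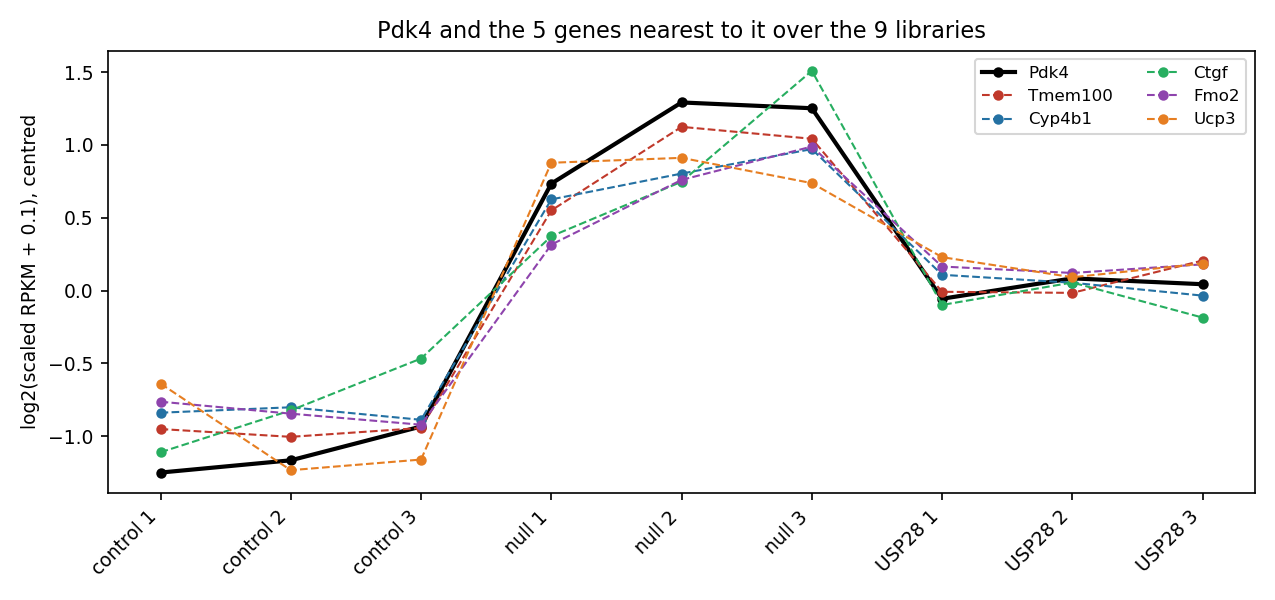
Log2(scaled RPKM + 0.1) of Pdk4 (black) and the 5 genes nearest to it in each of the 9 libraries, each gene centred on its own mean. Lines join libraries as a guide to the eye and imply no order. All 6 are highest in the null-virus libraries, lowest in control and between them with USP28 virus.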

How the data were processed

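The members and the gene lists were chosen with earlier results of these data known. Per the labels' protocols, polyadenylated RNA was made into directional libraries and sequenced as read pairs on an Illumina NovaSeq. The submitters' processing notes name HISAT2 and DESeq2, with no version or role, and the human build GRCh38. Symbols and spans in the table are mouse, so positions are given on GRCm38, the build of the matching GENCODE M21 annotation. No counting program is named in the sources used here.

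The authors deposited RPKM values (reads per kilobase, per fixed library total) of 30128 genes in 9 columns. Multiplied by gene length, the deposited RPKM values are whole steps of a size constant within a library in 99.9839% of 204335 values above 0 (tolerance 0.01 reads), which gave the reads behind each value. The 33 exceptions lie in 11 genes, none of them a member. Each exception is in a db/db library, and the control libraries hold none. Among the gene symbols, 26 had been turned into dates.

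RPKM was scaled by a trimmed mean of M values (30% and 5% trimmed), then log2(scaled RPKM + 0.1) entered limma 3.58.1 under R 4.3.3, with a prior that was robust and followed the mean. The scale understates the change of low genes. All 9 libraries entered 1 fit of 3 groups without covariates. P-values were adjusted by Benjamini-Hochberg over the 14104 genes that reached 0.5 RPKM in 3 libraries or more. The scripts were tested on simulated data. All members were named. From each list of related genes up to 4 with the smallest p in any comparison were named, and every gene of the list of remaining complex genes. Pklr matched no symbol. The values of 1 gene that this rule names are not reported here. No pair of libraries of a group agreed within sampling noise (chi-square per degree of freedom 19.1 to 143.8).

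Alternatives were other scalings, pseudocounts and filters, fits of only the 2 groups compared, a block for the replicate number, limma voom on recovered reads, omission of mitochondrial genes, and omission of each library in turn. Removing a trend with gene length and omitting the 11 genes above were chosen after seeing the data. RefSeq promoter windows were searched on both strands. Python 3.11.15 with matplotlib 3.10.9 drew the figures.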

Additional observations from a re-analysis of the deposited data

How the results depend on the processing

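Of the 4 members that passed between null virus and control, 2 did so with the 2 groups alone and 2 to 6 with a library left out. Over all genes the count of 3119 became 1660 and 1433 to 4434. Library totals gave 1229 higher and 1199 lower genes there, against 1392 and 1727. Between USP28 virus and null virus the 1 member that passed became 0 with library totals, without the filter, with the 2 groups alone and with the replicate block, and 0 to 1 with a library left out (1 to 3 at an unadjusted p under 0.05). In the main fit 2332 of all 14104 tested genes had an unadjusted p under 0.05 there. Over all genes the 63 calls (41 higher, 22 lower) became 31 with library totals (27 higher, 4 lower), 35 without the filter, 183 with limma voom, and 0 in limma with the 2 groups alone and with the replicate block (1808 and 2323 at an unadjusted p under 0.05). With a library left out they ranged from 0 to 925, the highest without null-virus replicate 1. Between USP28 virus and control the 3 members that passed became 6 with the 2 groups alone and 1 to 6 with a library left out. The 1649 genes became 921 with library totals (612 higher, 309 lower), 3771 with the 2 groups alone and 369 to 4105 with a library left out. In each comparison the highest of these ranges came without null-virus replicate 1.

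A sign turned in small differences that had not passed. Mpc2 between null virus and control was -0.064 without null-virus replicate 1 and up to 0.19 without another library. Between USP28 virus and null virus, Pdk2 was 0.02 with library totals and -0.143 to 0.012 with a library left out (highest without USP28-virus replicate 1), Dlat was 0.077 with library totals and -0.089 to 0.077 with a library left out (above 0 without null-virus replicate 3 or USP28-virus replicate 1), and Pdhb was -0.065 to 0.1 with a library left out (below 0 without null-virus replicate 2 or 3 or USP28-virus replicate 3). The cause was not tested. The replicate number was also fitted as a block. Departures of same-numbered libraries from their group means correlated at -0.029 to 0.06 over the tested genes. These values show no pairing over the genes as a whole, but a pairing that touches few genes would not be seen in them. Among the members the block ended the calls of Pdk4 between the db/db groups and of Pdhb between USP28 virus and control (adjusted p = 0.076). Pdk3, with 19 to 56 reads per library, was left untested by the filter of 0.5 RPKM in at least 3 libraries.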
